A study of Mus musculus with 2 samples.

Results

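The proteasome genes were taken as every mouse gene whose symbol joins PSMA, PSMB, PSMC, PSMD or PSME to a digit and that had at least 100 UMIs (unique molecular identifiers, each standing for 1 captured transcript) over the 2 deposited matrices. Of 27998 genes in the files, 45 carry such a symbol, none of them a name with -PS, and 42 reached the minimum. The 42 hold 31 subunits of the 26S proteasome (14 of the 20S core and 17 of the 19S cap), 3 immune catalytic subunits, 3 chaperones that assemble the base of the cap and 4 subunits of other activators. The remaining symbol, Psmc3ip, names a cofactor of meiotic recombination that is no proteasome subunit, and it is described apart. Just inside the minimum stood Psmb9 with 345 UMIs and Psmb8 with 621, and just outside it Psme2b with 20, Psmb11 with 9 and Psma8 with 3.

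The cells were primary neural stem cells from the subventricular zone (SVZ), the germinal layer along the lateral ventricles, of C57BL/6 mice. The young library came from mice of 2 months and the aged library from mice of 15 to 18 months, with tissue of 5 mice pooled for each. Dissociated cells were held in proliferation medium before 10x Genomics 3′ capture, so the values describe cultured cells and both libraries share that culture. There is 1 library per age, so no difference between them has a replicate check, no test was made, and age cannot be told apart from pool, culture or library. Every interval below is a 95% exact interval and covers counting error only.

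The proteasome is the main protease of the cytosol and nucleus, and it degrades proteins tagged with ubiquitin. Its 20S core is a barrel of outer alpha rings and inner beta rings, and the beta rings carry the proteolytic sites of Psmb5, Psmb6 and Psmb7. The 19S cap binds ubiquitin, unfolds the substrate with a ring of ATPases and feeds it into the core, while interferon signalling can replace the catalytic subunits by Psmb8, Psmb9 and Psmb10. In the SVZ, proteasome and lysosome activity are known to differ between quiescent and activated neural stem cells.

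The filter asked for 1000 or more detected genes and no more than 10% mitochondrial UMIs. It kept 2650 of 5151 barcodes in the young library, with 59366718 UMIs, and 2537 of 4731 in the aged library, with 60580887 UMIs. The median depth was 22987 and 23780 UMIs a cell, 4 barcode sequences occurred in both libraries, and 0 of them were kept in both. The 7 markers of activated stem cells or transit amplifying cells, Nes and Egfr among them, all reached 10 CPM (counts per 1000000 UMIs) in each library. Of the 8 microglial markers 7 were at 0 in young and 4 in aged cells (Tmem119, C1qa, C1qb and Ctss in both), and they summed to 1.62 and 0.743 CPM.

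Upstream sequences of 4 members are printed because the values below turn on them: Psmb5 and Psmb6 are catalytic subunits whose UMIs are set against those of their immune counterparts, Psmb10 is the immune subunit with enough UMIs to follow across cell states, and Psmd11 had the highest aged to young ratio of the 26S subunits. All are from RefSeq on build GRCm38.p6, read 5′ to 3′ on the strand of the gene, and hold the bases before the RefSeq start that GENCODE vM21 puts in no exon. Psmb5 is at chr14:54618023-54618245 on the minus strand, Psmb6 at chr11:70525107-70525356 on the plus strand, Psmb10 at chr8:105938445-105938642 on the minus strand and Psmd11 at chr11:80428365-80428614 on the plus strand. Capitals mark matches to a searched motif.
Psmb5: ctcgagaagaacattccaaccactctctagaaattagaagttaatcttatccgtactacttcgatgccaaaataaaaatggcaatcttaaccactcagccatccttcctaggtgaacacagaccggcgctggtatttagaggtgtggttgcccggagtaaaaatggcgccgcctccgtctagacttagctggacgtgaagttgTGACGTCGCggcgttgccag
Psmb6: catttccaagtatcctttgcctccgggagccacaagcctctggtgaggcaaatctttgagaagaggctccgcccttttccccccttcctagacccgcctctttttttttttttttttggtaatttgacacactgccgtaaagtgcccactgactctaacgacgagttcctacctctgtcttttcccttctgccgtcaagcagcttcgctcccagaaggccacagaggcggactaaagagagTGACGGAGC
Psmb10: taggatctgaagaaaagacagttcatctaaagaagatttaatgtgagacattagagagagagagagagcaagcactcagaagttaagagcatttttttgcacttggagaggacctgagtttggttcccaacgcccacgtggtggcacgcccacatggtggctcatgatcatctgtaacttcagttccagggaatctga
Psmd11: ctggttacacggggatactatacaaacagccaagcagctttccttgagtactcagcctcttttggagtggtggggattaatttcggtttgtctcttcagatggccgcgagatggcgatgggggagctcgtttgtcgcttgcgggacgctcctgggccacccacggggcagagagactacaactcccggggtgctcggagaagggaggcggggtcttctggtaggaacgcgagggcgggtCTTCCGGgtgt

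Motifs were searched on both strands in the 250 bases before each start, over 27025 genes with a promoter entry, of which 35 were proteasome genes and 25 of those 26S subunits. Psmb1, Psmb2, Psmb7, Psmc3, Psmd3 and Psmd7 had no entry. The antioxidant response element core TGACNNNGC, which factors such as Nfe2l1 and Nfe2l2 bind, lies 47 to 39 bases before the start of Psmb5 and 9 to 1 bases before that of Psmb6. It was found for 4 of 25 26S subunits (16%) and 11.5% of all genes. The ETS-type site CCGGAAG lies 11 to 5 bases before the start of Psmd11, on the opposite strand, and was found for 9 of 25 subunits (36%) and 7.83% of all genes. The interferon-type motif GAAANNGAA was found for 2 of 25 subunits (8%), against 8.18% of all genes, and for none of the 3 immune subunits. GENCODE places all 250 bases of the Psmb8 and Psmb9 windows and 52 of those of Psmb10 in exons, so the missing motif says nothing of their promoters. No match overlapped another in the printed sequences. A match describes letters in the window and not the binding of a factor.

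The 26S subunits were abundant and evenly expressed. Because 3′ capture gives about 1 count for a transcript whatever its length, CPM was set side by side between genes. Differences between genes in capture and in the assignment of reads were not measured. Summed over the 31 subunits, the level was 8792 CPM in the young library, which is 0.879% of its UMIs, and 8469 CPM (0.847%) in the aged library. The core made up 5209 and 4999 CPM of this and the cap 3584 and 3470 CPM. Single subunits covered a 4.36-fold range in the young and a 4.19-fold range in the aged library, with a median of 237.2 and 237 CPM. The median subunit of the core stood at 357 and 344 CPM and that of the cap at 211 and 201 CPM. The assembly chaperones of the base and the other activators were lower still, with medians of 40.5 and 40.6 CPM and of 50.2 and 52.4 CPM.

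**Figure D1:**
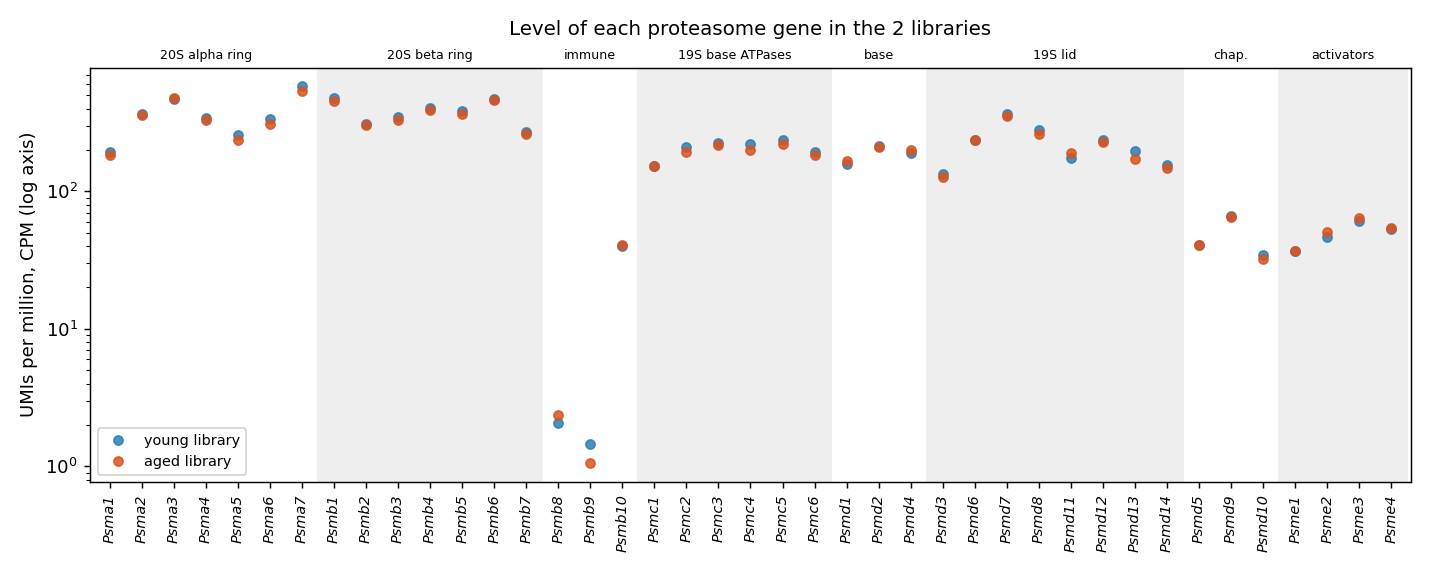
CPM (log axis) of the 41 proteasome genes in the young (blue) and the aged (orange) library, grouped by role, 1 point a library and no error bar. Psma7 is highest at 580 and 537 CPM, the 26S subunits lie above 128 CPM, and Psmb8 and Psmb9 lie under 2.4 CPM.

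The aged library had slightly less of most 26S subunits. The summed level was 0.963 times the young one (interval 0.960 to 0.967, log2 difference -0.054, and -0.036 where every cluster or every cell was given the same weight), with 0.960 for the core (0.955 to 0.965) and 0.968 for the cap (0.962 to 0.974). Of 39 members that reached 10 CPM in at least 1 of the libraries, 29 were lower in the aged one, where 44.6% of all 8332 genes compared were lower. Among the 31 subunits 26 were lower, and the interval lay below 1 for 22, above 1 for 3 and on both sides of 1 for 6. The median log2 difference was -0.04 over the members and -0.05 over the 26S subunits, against 0.02 over all genes compared. No member compared was 1.2-fold apart: 0 of 39 were higher by that much, against a background of 6.3%, and 0 of 39 lower, against 4.8%. The difference is thus small in each gene and lies mostly on one side. The summed difference also varied with cell depth, with each library split into 4 equal bins. In the shallowest bin the 26S level was alike, at 8844 CPM in young and 8843 CPM in aged cells. In the next bins it was 8801 and 8636 CPM, then 8825 and 8551 CPM, and in the deepest 8753 and 8231 CPM. The part of depth in this difference was not tested. By cluster the difference was less even. The cap was lower in the aged cells of 8 of 13 clusters and the lid in 7. Of the 31 subunits 12 were lower in at least 10 clusters, and 3 were higher in at least 10. Neither these counts nor those of the intervals were taken over all genes, so they do not set the subunits apart.

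**Figure D2:**
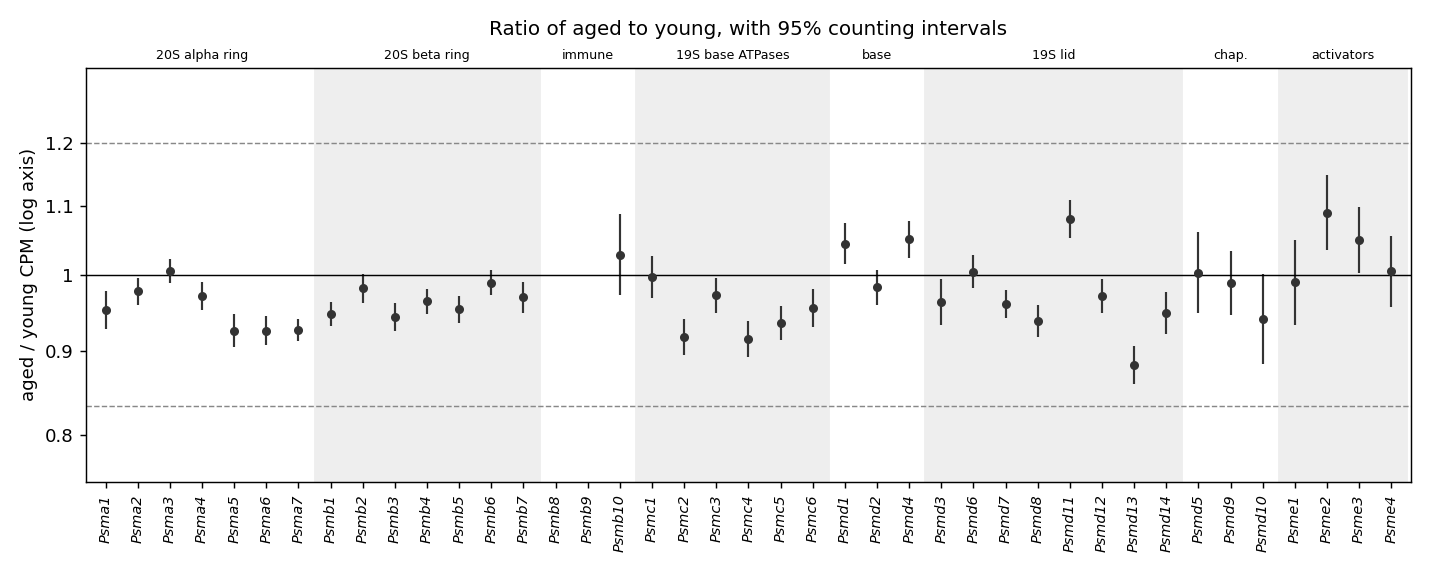
Aged to young ratio of CPM (log axis) for each proteasome gene with at least 10 CPM, with 95% exact intervals for counting error, solid line at 1 and dashed lines at 1.2-fold either way. Psmd13 is lowest at 0.882, Psme2 highest at 1.09, and no point crosses a dashed line.

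The alpha ring, which gates the core, summed to 2542 CPM in the young and 2431 CPM in the aged library, and 6 of its 7 subunits were lower. Psma7 was the most abundant proteasome gene, with 580 CPM in the young and 537 CPM in the aged library, a ratio of 0.926 (0.912 to 0.941). It was lower in the aged cells of 12 of 13 clusters. Psma5 had 256 and 237 CPM (ratio 0.925, 0.904 to 0.946), and Psma6 was at the same ratio. Psma3 was the alpha subunit with the highest ratio, at 473 and 476 CPM (1.005, 0.989 to 1.02), and Psma1 had the lowest level of the ring, at 194 and 185 CPM.

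The constitutive beta ring summed to 2666 and 2568 CPM, and 7 of 7 subunits were lower in the aged library. Of the catalytic subunits, Psmb5, which has the chymotrypsin-like site, was at 386 CPM in the young and 368 CPM in the aged library (ratio 0.953, 0.936 to 0.971). Psmb6, with the caspase-like site, was at 469 and 464 CPM (0.989, 0.973 to 1.01). Psmb7, with the trypsin-like site, was the lowest of the ring at 269 and 261 CPM (0.969, 0.948 to 0.991). The structural subunit Psmb1 was highest in the young library, at 478 and 452 CPM, and Psmb3 had the lowest ratio, 0.943 (0.925 to 0.962), with 349 and 329 CPM. Psmb1 and Psmb7 were lower in the aged cells of 13 of 13 clusters.

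The 6 ATPases of the cap base, the motor that unfolds substrates, were all lower in the aged library and summed to 1240 and 1173 CPM (ratio 0.946, 0.936 to 0.956). Their summed level was lower in the aged cells of every one of the 13 clusters, by ratios of 0.898 to 0.985. Psmc4 had the lowest ratio, 0.914 (0.892 to 0.937), with 220 and 201 CPM. Psmc2 was close to it with 211 and 194 CPM (0.917, 0.894 to 0.941), and was lower in 13 of 13 clusters. Psmc5 had the highest level of the ATPases in both libraries, at 237 and 222 CPM. Psmc1 had the lowest level, 153.4 and 152.9 CPM, and its ratio of 0.996 (0.968 to 1.03) was the highest of the ring. The other base subunits were the exception within the cap only as a sum, at 566 and 579 CPM (1.02, 1.01 to 1.04), with 2 of 3 higher. Psmd4, a ubiquitin receptor, was at 191 and 201 CPM (1.05, 1.02 to 1.08), and the scaffold Psmd1 was at 159 and 166 CPM (1.04, 1.01 to 1.07). Psmd2, the scaffold that docks ubiquitin shuttles, was at 216 and 212 CPM (0.983, 0.959 to 1.01).

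The lid, which removes ubiquitin chains, summed to 1778 and 1718 CPM, and held the lowest and the highest ratio of all 26S subunits. Psmd13, a structural subunit of the lid, was at 196 CPM in the young and 173 CPM in the aged library (0.882, 0.859 to 0.906), and was lower in 11 of 13 clusters. Psmd11, a subunit that contacts both cap and core, was at 175 and 189 CPM (1.08, 1.05 to 1.11), and was higher in 11 of 13 clusters. The deubiquitinase Psmd14 was at 155 and 148 CPM (0.949, 0.921 to 0.977). Psmd7, its partner, had the highest level of the lid at 367 and 353 CPM, and Psmd3 the lowest of all 26S subunits at 133 and 128 CPM.

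The chaperones that assemble the base differed little. Psmd10 had the lowest level and the lowest ratio, at 34.5 and 32.5 CPM (0.940, 0.883 to 1.001), Psmd9 the highest level at 66.0 and 65.3 CPM, and Psmd5 the highest ratio, at 40.5 and 40.6 CPM. Of the other activators, the interferon-inducible pair Psme1 and Psme2 lies 5911 bases apart on chromosome 14 (chr14:55578123-55581529 and chr14:55587441-55591113 on GRCm38, GENCODE vM21). Psme1 was at 37.1 and 36.7 CPM (0.989, 0.932 to 1.05). Psme2 was at 46.7 and 50.9 CPM (1.09, 1.04 to 1.15), and was higher in the aged cells of 12 of 13 clusters. The nuclear activator Psme3 was at 60.8 and 63.8 CPM (1.05, 1.003 to 1.10) and Psme4, known for its part in spermatogenesis and DNA repair, at 53.6 and 53.8 CPM (1.005, 0.956 to 1.06). The annotation holds 4 pseudogenes named after members, and how reads that match both a gene and a near-identical copy were counted is not known.

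The immune catalytic subunits were rare apart from Psmb10. Psmb8, counterpart of Psmb5, had 122 UMIs (2.06 CPM) in the young and 143 UMIs (2.36 CPM) in the aged library, and Psmb9, counterpart of Psmb6, had 86 UMIs (1.45 CPM) and 64 UMIs (1.06 CPM). Both were under the 10 CPM needed for the comparison, and the intervals of their ratios, 0.896 to 1.48 and 0.519 to 1.02, hold 1. Psmb10, counterpart of Psmb7, was at 39.84 and 40.97 CPM (ratio 1.03, 0.972 to 1.09). As a share of the UMIs of each pair, Psmb8 made up 0.529% (0.440 to 0.631) of young and 0.637% (0.537 to 0.750) of aged UMIs. Psmb9 made up 0.308% (0.247 to 0.380) and 0.227% (0.175 to 0.290). Psmb10 made up 12.9% (12.4 to 13.4) and 13.6% (13.1 to 14.1). For each of the 3 pairs the intervals of the libraries overlapped in these kept cells. Over all barcodes, with no cell filter, those of Psmb10 did not, at 14.8% (14.4 to 15.2) and 15.7% (15.3 to 16.1).

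Counted by cell, with each cell thinned to 5000 UMIs, Psmb8 had a UMI in 1.08% of 2307 young and 1.36% of 2274 aged cells, and Psmb9 in 0.390% and 0.572%. The 343 young and 263 aged cells under that depth were left out. Psmb10 had a UMI in 18.8% and 18.2% of thinned cells, and Psmb5 in 85.8% and 83.8%. Without thinning the shares were 4.15% and 4.85% for Psmb8, 3.09% and 2.48% for Psmb9, 52.4% and 56.3% for Psmb10 and 94.3% and 94.8% for Psmb5. The intervals of the thinned shares were 0.703 to 1.60% and 0.928 to 1.93% for Psmb8, and 0.179 to 0.739% and 0.305 to 0.976% for Psmb9, so the libraries overlapped. The culture held no cell type known to lack these genes, so the share that free RNA gives was not measured, and these values count cells with a UMI and not cells that express the gene. The 8 interferon response markers summed to 48.4 and 74.9 CPM, and their part in the immune subunits was not tested. Microglial markers were close to 0, as given above.

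Cell states were found by clustering both libraries together with the proteasome genes and their associated genes left out of the variable genes, which gave 13 clusters. Cluster 2 was cycling S-like, with 10 of 15 S phase markers raised, clusters 4 and 11 were cycling G2/M-like (15 of 15 markers each), cluster 10 was astrocyte or quiescent stem cell-like (10 of 15) and cluster 12 was integrated stress response-like (9 of 9). The other clusters are called by number and leading genes. Clusters 6 and 13 were shallow, with median depths of 2380 and 3520 UMIs in young and 2386 and 3333 UMIs in aged cells. Across the 11 deeper clusters the 26S level varied 1.19-fold in either library, from 8018 to 9573 CPM in young and from 7744 to 9209 CPM in aged cells. Cluster 4 was lowest and cluster 8 highest in both. In the aged cells the level was lower than in the young cells in 10 of 13 clusters, with ratios from 0.910 in cluster 11 to 1.03 in cluster 12.

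**Figure D3:**
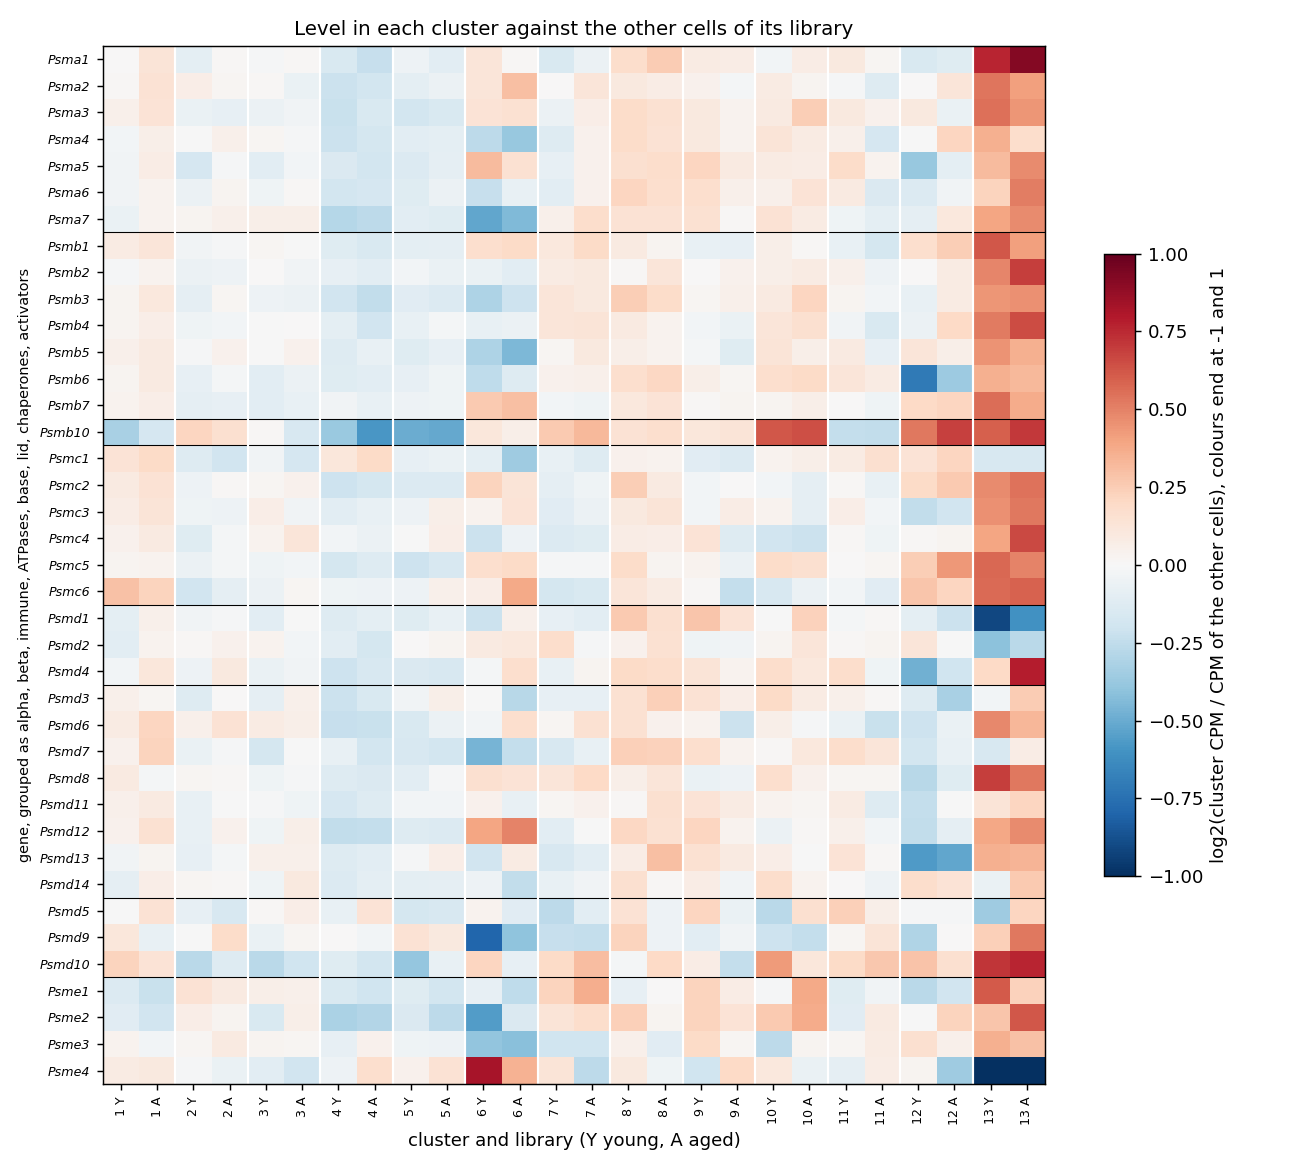
log2 ratio of each proteasome gene's CPM in a cluster to that in the other cells of its library (red higher, blue lower, colours end at -1 and 1), with the young (Y) and aged (A) library side by side; Psmb8 and Psmb9 are left out for low counts. Cluster 4 is blue and cluster 8 red for nearly every 26S subunit, Psmb10 goes from 0.669 to 1.60 times the other cells over clusters 4 and 12, and cluster 13 is red for most genes and blue in both libraries for Psmc1, Psmd1, Psmd2 and Psme4.

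The G2/M-like cluster 4 had less of nearly the whole 26S proteasome. Its 26S level was 8018 CPM in the young and 7744 CPM in the aged library, 0.902 times the other cells of the same library in each (0.894 to 0.910 and 0.895 to 0.910). The core was at 0.893 and 0.892 times the other cells and the cap at 0.914 and 0.917. Lower in both libraries were 30 of 31 subunits, against 44% of all genes, and Psmc1 was the exception. Past 1.2-fold lower in both libraries were 3 of 39 members, against 11.5% of all genes. These were Psma7 (485 and 458 CPM, 0.819 and 0.833 times the other cells), the immune subunit Psmb10 (31.7 and 28.7 CPM, 0.775 and 0.669) and the activator Psme2 (38.3 and 42.6 CPM, 0.802 and 0.816). The cluster's cells were deep, with medians of 30885 and 34010 UMIs, and the part of depth in this result was not tested beyond the thinned values, which stood on the same side. Cluster 5, which led with histone genes and had 12 of 15 G2/M markers raised, was at 0.934 and 0.952, with 25 of 31 subunits lower in both libraries (background 45.8%). Cluster 11 had the same 15 G2/M markers raised but was at 1.03 for young and 0.970 for aged cells.

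Cluster 8, led by Tead2 and Anxa3, had the highest 26S level of the deeper clusters, 9573 CPM in the young and 9209 CPM in the aged library. This was 1.10 (1.09 to 1.11) and 1.09 (1.08 to 1.11) times the other cells. All 31 subunits were higher in both libraries, against 34% of all genes, although 0 of 39 members were 1.2-fold higher in both (background 6.76%). The excess was alike in core (1.10 and 1.09) and cap (1.10 and 1.09). The cluster held 271 young and 140 aged cells. The log2 ratio was 0.14 and 0.13, and 0.072 and 0.075 when cells up to 20% mitochondrial UMIs were clustered anew, where the matching cluster held 197 of its 411 cells.

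Cluster 10, which resembled astrocytes or quiescent stem cells, had a 26S level of 9231 and 8931 CPM, 1.05 (1.04 to 1.07) and 1.06 (1.04 to 1.07) times the other cells, with 22 of 31 subunits higher in both libraries (background 36.7%). This direction turned when cells up to 20% mitochondrial UMIs were clustered anew. The log2 ratios of 0.074 and 0.081 became -0.069 and -0.076, with 3 members past 1.2-fold lower in both libraries against 0. The matching cluster of 1129 cells held 189 of the 258 cells of cluster 10. It was astrocyte or quiescent stem cell-like too, with 11 of 15 markers raised and a median of 12.6% mitochondrial UMIs. At the limit of 10% the ATPases of the base did not share in the higher level of cluster 10, at 0.991 and 0.976 times the other cells. Psmb10 was the only 1 of 39 members past 1.2-fold higher in both libraries (background 15.2%), at 59.5 and 62.3 CPM, 1.54 (1.32 to 1.78) and 1.56 (1.34 to 1.82) times the other cells, and its log2 ratios of 0.62 and 0.64 were 0.70 and 0.75 at the limit of 20%. Psme2 was at 55.4 and 65.0 CPM, 1.198 and 1.29 times the other cells.

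In the stress response-like cluster 12 few members passed 1.2-fold, a smaller share than over all genes in either direction. Its 26S level was near that of the other cells, at 0.956 (0.937 to 0.974) in 59 young and 1.02 (1.01 to 1.03) in 135 aged cells. Past 1.2-fold lower in both libraries were 2 of 39 members (background 19%). The catalytic subunit Psmb6 was at 289 and 365 CPM, 0.612 (0.551 to 0.679) and 0.778 (0.732 to 0.827) times the other cells. The lid subunit Psmd13 was at 134 and 123 CPM, 0.675 (0.577 to 0.786) and 0.697 (0.627 to 0.773). At a coarser clustering of resolution 0.5 the call of Psmb6 was lost, with log2 ratios of -0.16 and -0.13 in place of -0.71 and -0.36, and 1 member was past 1.2-fold lower. Past 1.2-fold higher was 1 of 39 members (background 12.1%), Psmb10 with 56.9 and 63.8 CPM, 1.44 (1.12 to 1.82) and 1.60 (1.38 to 1.86). The base ATPases were at 1.08 and 1.12 and the lid at 0.863 and 0.925 times the other cells. The ATPase Psmc5 was at 281 and 294 CPM (1.19 and 1.35), and the ubiquitin receptor Psmd4 at 138 and 176 CPM (0.716 and 0.869).

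Among members with at least 10 CPM, Psmb10 varied most across cell states. Its SD of log2 CPM over the deeper clusters and both libraries was 0.35, against 0.21 for Psmd10 and 0.20 for Psmd13, the next in order, and 0.06 for Psmb2, 0.08 for Psmd2 and 0.08 for Psmb5, the lowest. With the shallow clusters included Psme4 had the largest SD, 0.44, before Psmb10 with 0.36 and Psmd10 with 0.27, and Psmd14 (0.11), Psmd11 (0.12) and Psmd2 (0.12) the smallest. The share of Psmb10 in the UMIs of Psmb10 and Psmb7 was lowest in cluster 5 of the young library, at 10.1% (8.76 to 11.5), and in cluster 4 of the aged library, at 10.3% (9.12 to 11.6). It was highest in cluster 10 in both, at 17.8% (15.5 to 20.2) and 18.7% (16.3 to 21.3). Cluster 12 stood at 15.6% and 17.5%. Cluster 1 stood at 10.5% and 11.95% and the G2/M-like cluster 11 at 11.2% and 12.1%, so a low share was not particular to clusters 4 and 5. The intervals of clusters 4 and 5 did not overlap those of cluster 10 in either library. The share was higher in the aged cells in 10 of 13 clusters. With cells thinned to 5000 UMIs, the log2 ratios of Psmb10 to the other cells in cluster 5 were -0.18 and -0.12, in place of -0.50 and -0.51. In cluster 4 they were -0.73 and -0.26, in place of -0.37 and -0.58, and in cluster 10 they were 0.65 and 0.70, in place of 0.62 and 0.64.

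**Figure D4:**
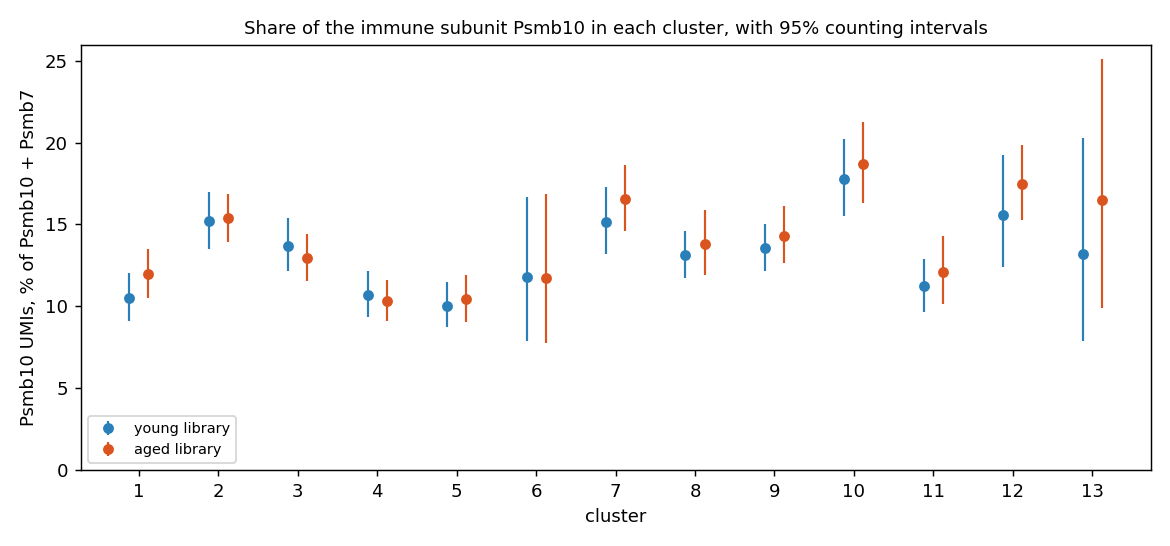
Psmb10 UMIs as a percentage of those of Psmb10 and Psmb7 together in each cluster, for the young (blue) and aged (orange) library, with 95% exact intervals for counting error. Clusters 4 and 5 lie at 10.1 to 10.7%, cluster 1 at 10.5 and 11.95% and the G2/M-like cluster 11 at 11.2 and 12.1%. Cluster 10 lies at 17.8 and 18.7%, while the 2 libraries lie close together within most clusters.

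The immune subunits also went with the mitochondrial share of a cell, which the cell filter limits. Among cells that passed the gene minimum, with CPM taken over UMIs that are not mitochondrial, the summed 26S level was 9591 CPM in young and 9413 CPM in aged cells with up to 5% mitochondrial UMIs. That band held 343 young and 304 aged cells. The shallow clusters 6 (236 and 196 cells) and 13 (68 and 65 cells) had medians of 2.16% and 0.763%, so many cells of the band were shallow. The 26S level was 9560 and 9201 CPM between 5 and 10%, and 7366 and 7499 CPM in the 78 young and 48 aged cells above 20%. The summed immune subunits went the other way, from 50.1 and 45.6 CPM up to 5% to 85.9 and 89.4 CPM between 15 and 20%, and 84.4 and 83.0 CPM above 20%. Below 10% the libraries went apart, with 47.05 CPM in young and 48.3 CPM in aged cells between 5 and 10%. RNA quality and cell state cannot be told apart here. Over the 4 depth bins the 26S level of young cells ran from 8844 CPM in the shallowest to 8753 CPM in the deepest. In aged cells it ran from 8843 to 8231 CPM. The libraries were thus alike in the shallowest bin and furthest apart in the deepest.

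The 2 shallow clusters are described apart. Cluster 13, with 68 young and 65 aged cells, led with AY036118 and Gm42418 and had a median of 0.763% mitochondrial UMIs. Its 26S level was 11452 and 11290 CPM, 1.30 (1.26 to 1.35) and 1.33 (1.29 to 1.39) times the other cells. At the coarser clustering of resolution 0.5 these log2 ratios of 0.38 and 0.42 were 0.096 and 0.14. Past 1.2-fold higher in both libraries were 25 of 39 members (background 13.7%), or 7 at that resolution, with Psma1 at 328 and 349 CPM (1.70 and 1.89). Past 1.2-fold lower were 3 members (background 35.5%). Psme4 had 5 and 6 UMIs there, 0.328 and 0.436 times the other cells, Psmd1 had 24 and 28 UMIs (0.531 and 0.658) and Psmd2 had 46 and 45 UMIs (0.752 and 0.831). Cluster 6, with 236 and 196 cells, had a 26S level near that of the other cells, at 0.970 (0.944 to 0.997) and 1.002 (0.974 to 1.03). Past 1.2-fold higher there in both libraries were 2 members (background 20.2%), Psmd12 (1.32 and 1.41) and Psme4 (1.77 and 1.27). Past it lower were 4 (background 13.6%), Psma7 (0.697 and 0.736), Psmb5, Psmd9 and Psme3. The part of depth and RNA quality in these values was not tested.

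Most 26S subunits varied together across clusters. Over the 26 sums of 1 cluster in 1 library, the Pearson r of log2 CPM of each subunit with the sum of the other subunits had a median of 0.72, and 0.59 over the 22 sums without the shallow clusters. For 3256 other genes of at least 50 CPM the median r with the 26S sum was 0.01 in each case. The points share libraries, cells and depth, so these values are descriptions. Highest among the subunits without the shallow clusters were Psmb3 (0.91) and Psma6 (0.88), and lowest was Psmc1 (-0.04). Over all clusters Psmd1 (-0.59), Psmd2 (-0.55) and Psmc1 (-0.25) had a negative r, and no other 26S subunit did. The 8 other genes with the highest r over all clusters were Naca (0.95), Rpl14, Rps3a1, Pomp (0.92), Rpl6, Cops5, Rpl3 and Rps3. Without the shallow clusters they were Hsp90ab1 (0.94), Grpel1 (0.89), Naca (0.85), Ptcd2, Mrps23, Fcf1, Klf10 and Eif3m.

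Of 41 genes listed for their work with the proteasome (assembly, ubiquitin, shuttling, unfolding, transcription of subunits and antigen presentation), 40 were found and 35 reached 10 CPM. In the aged library 22 of these were higher, where 55.4% of all genes were, and 13 lower (44.6%). Past 1.2-fold higher was 1 of 35 (background 6.3%) and past it lower 0 (4.8%), so these counts stand near or below the background. The 1 gene was Nfe2l1, the transcription factor that raises subunit genes when the proteasome is inhibited, with 57.7 CPM in the young and 70.0 CPM in the aged library (1.21, 1.16 to 1.27). It was higher in the aged cells of 13 of 13 clusters. In cluster 10 it was at 91.6 and 102 CPM (1.64 and 1.49 times the other cells) and in cluster 12 at 98.0 and 111 CPM (1.72 and 1.64). Its relative Nfe2l2 was at 63.0 and 58.9 CPM (0.936, 0.894 to 0.980).

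All 5 assembly factors of the core were lower in the aged library, where 44.6% of all genes were, and both deubiquitinases higher (55.4%), which is too few genes to set a role apart. Psmg4, named after its value was seen, was at 112 and 94.98 CPM (0.849, 0.819 to 0.879) and was lower in 13 of 13 clusters, and Psmg1, Psmg2 and Psmg3 had ratios of 0.918, 0.948 and 0.898. Pomp, which matures the core, was at 499 and 486 CPM (0.973, 0.958 to 0.989). The cap deubiquitinase Usp14 was at 117 and 124 CPM (1.06, 1.02 to 1.09). In antigen presentation, B2m was at 53.6 and 51.8 CPM (0.967, 0.920 to 1.02).

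Psmc3ip, which shares the start of its symbol with the ATPases, followed another pattern than the subunits. It was at 75.1 CPM in the young and 77.8 CPM in the aged library (1.04, 0.995 to 1.08). In cluster 3, led by histone genes with 14 of 15 S phase markers raised, it was at 110 and 119 CPM, 1.55 (1.43 to 1.68) and 1.65 (1.53 to 1.77) times the other cells. In cluster 10 it was at 24.2 CPM in each library, 0.311 and 0.301 times the other cells, and in cluster 12 at 18.96 and 24.8 CPM (0.249 and 0.307). Its SD of log2 CPM over the deeper clusters was 0.85.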

How the data were processed

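Values in the deposited matrices are raw UMI counts with no normalization. The submitters' processing notes name Cell Ranger 3.0.2 and mm10. The gene models behind the counts are not given in the sources used. The members, role groups and gene lists were chosen with earlier results of these data known.

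Current symbols were found by gene identifier for 27645 of 27998 genes, coordinates come from GENCODE vM21 on GRCm38, and upstream sequences from RefSeq on GRCm38.p6 (35 of 41 proteasome genes). Counts were summed over kept cells and scaled to CPM. Log2 differences of single genes between the libraries, their medians, fold calls, SD and r use CPM plus 1. Log2 ratios of summed levels, and those of a cluster to the other cells, are of CPM with nothing added. Ratios have exact conditional binomial intervals and shares exact Clopper-Pearson intervals at 95% (scipy 1.17.1). The scripts were checked on simulated counts. Molecules are counted by UMI, and intervals leave out all variation between cultures.

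Cells were clustered on log-normalized counts with 2000 variable genes, 30 components and 20 neighbours, split by Leiden at resolution 1 (numpy 2.4.6, scikit-learn 1.9.0, leidenalg 0.10.2), with no integration. A cluster was named when at least 3 and no fewer than 50% of a type's markers were 1.5-fold above the other cells at 10 CPM or more, with 1 or more among its 10 leading genes, no other type ahead and a median depth of at least 1/3 of its library's. The markers were listed beforehand, but this naming rule was set after the clusters had been seen. No doublet caller was run and doublets were not removed, and leaving out the 5% deepest cells is an alternative.

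Values are given for the highest and lowest member of each role group by level and by ratio, for Psmb5 to Psmb10 and Psme1 to Psme4, for the 3 members with the largest and smallest spread across clusters, for associated genes past 1.2-fold and for Nfe2l1, Nfe2l2, Pomp, Usp14 and B2m. A few genes that this rule or the lists hold are not reported here. Other genes named, such as those past 1.2-fold in a cluster, were chosen after their values were seen.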

Additional observations from a re-analysis of the deposited data

Results flagged for a closer look

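A pair of genes outside the minimum of 100 UMIs still gave counts in cells where they were not looked for. Psmb11, the catalytic subunit of the thymic cortex, had 5 UMIs in the kept cells of both libraries, 1 in young and 4 in aged cells. Psme2b, a retrotransposed relative of Psme2, had 12 UMIs, 5 in young and 7 in aged cells. Psma8, also under the minimum, had 2 UMIs in young and 0 in aged cells. These counts are few and no control samples exist to compare them with, so expression and stray reads cannot be told apart.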

How the results depend on the processing

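Of 399 recomputed values 319 stayed within their counting interval (counts of genes within 1.5-fold), 78 moved further and 2 turned direction. Those 2 were the 26S log2 ratios of cluster 10, 0.074 in young and 0.081 in aged cells, which were -0.069 and -0.076 at a mitochondrial limit of 20%, where 3 members in place of 0 were past 1.2-fold lower. No member compared was past 1.2-fold between the ages under any of them, and 26 to 33 members were lower in the aged library. Psmb9, under 10 CPM, had a ratio of 0.729 (0.519 to 1.02) before 1 CPM was added. With no filter on low values it stayed inside 1.2-fold, at a log2 difference of -0.25 with 1 CPM added. The 26S log2 difference of -0.054 was -0.044 with no cell filter, -0.036 with every cluster or every cell weighing the same, and -0.074 under median-of-ratios scaling, which moves all genes by 0.02. In cluster 4 it was -0.15 in both libraries. With a mitochondrial limit of 20% it was -0.12 in young and -0.10 in aged cells, without mitochondrial and ribosomal UMIs -0.18 in both, and after thinning -0.17 in aged cells. In cluster 8 the young value of 0.14 was 0.17 at resolution 2, 0.072 at the limit of 20%, 0.16 without mitochondrial and ribosomal UMIs and 0.16 thinned. The aged value of 0.13 was 0.075, 0.16 and 0.11 under the last 3 of these. In clusters 10 and 12, 1 member each was past 1.2-fold higher, and up to 2 and 3 under the alternatives. In cluster 12 Psmb6 was no longer past 1.2-fold lower at resolution 0.5. Cluster 13 had 25 members past 1.2-fold higher and 3 lower, and 7 and 0 at resolution 0.5, and held too few deep cells to be thinned. The Psmb10 share of 12.9% and 13.6% was 14.8% and 15.7% both at the limit of 20% and with no cell filter. With no cell filter the intervals of the 2 libraries no longer overlapped. The causes were not tested. No paired analysis was possible because each age has 1 library. Depth limits Psmb8 and Psmb9 by cluster, where their UMIs are too few to compare.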

Other observations

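In the antigen presentation list, Tap1 (3.84 and 3.81 CPM), Tap2 (3.93 and 3.96 CPM), Tapbp (6.59 and 7.02 CPM) and Irf1 (2.78 and 2.71 CPM) stayed under 10 CPM, while H2-D1 was at 28.4 and 32.3 CPM (1.14, 1.07 to 1.21). These genes were read after their values were known, and no test was made.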
